A study of Homo sapiens with 6 samples.

Results

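The genes described here are 10 members of base excision and single-strand break repair: OGG1, MUTYH, NTHL1, NEIL1, APEX1, POLB, XRCC1, LIG3, APTX and PARP1. They were chosen by name, from 18132 genes with a probe set of their own. Every probe set of the array that the platform annotation assigns to one of these symbols alone was taken, which gave 31 of the 49372 probe sets in the deposited table. Of these, 23 were bright enough to test and 8 were not. The limit was a mean over all arrays of 4.64, the 40th percentile of all probe sets other than controls. Each of the 10 genes kept at least 1 tested probe set.

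RNA came from ARPE-19, an established line of human retinal pigment epithelium, with 3 arrays in each of 2 groups. The treatment protocol has all cells transfected with GFP (green fluorescent protein). It has them exposed 48 h afterwards to 10 mU/ml glucose oxidase for 3 h (3 h group) or left without it (0 h group). Glucose oxidase releases hydrogen peroxide into the medium as it consumes glucose. The sample descriptions differ from the protocol: they give the 0 h arrays as transfected with the fluorescent protein alone and the 3 h arrays as transfected with a fluorescent protein joined to alpha satellite, the repeat of human centromeres. Treatment and construct therefore cannot be told apart if the descriptions hold. As in any bulk sample, fewer expressing cells and less RNA per cell cannot be told apart. The labels list no culture kept for 3 h without the enzyme, and they do not say whether replicates were separate cultures, so p-values may measure technical spread only.

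Base excision repair removes single damaged bases, the commonest lesions that peroxide leaves in DNA. A glycosylase lifts out the base, an endonuclease cuts the backbone at the empty site, a polymerase fills the gap and a ligase closes it. Breaks in one strand, whether made directly or as intermediates of this pathway, are sensed by a poly(ADP-ribose) polymerase, which brings in a scaffold protein with the gap-filling, end-cleaning and sealing enzymes. Retinal pigment epithelium lives under light, high oxygen and a load of oxidised lipid, and its DNA repair is studied for that reason.

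The keratin genes KRT8 and KRT18 and the eye-field factor gene OTX2 were above the limit on these arrays, at 11.48, 12.22 and 8.37 (log2, brightest probe set, mean of the 0 h arrays). Of 13 pigment epithelium markers with a probe set 9 were tested and 4 were not: RPE65, RLBP1, LRAT and TYRP1 were under the limit in all their probe sets, with brightest 0 h means of 3.48, 4.20, 4.32 and 3.54. MITF stood at 8.15 on the same measure, and SERPINF1, PMEL, TYR, TTR and BEST1 stood at 6.12, 5.70, 5.31, 5.07 and 4.63. Of the 9 tested 3 rose (KRT8 by 0.72, KRT18 by 0.39, OTX2 by 0.19) and SERPINF1 fell by 0.40 (-0.40). Markers of blood and endothelium (5 of 8 tested) and of photoreceptors and neurons (4 of 6 tested) gave 0 calls in the limma fit per gene, with 2 and 1 at an unadjusted p under 0.05. PTPRC, CD14, CDH5 and RCVRN were under the limit. The tested markers of these lists were not: CD68 stood at 8.25 (log2, brightest probe set, mean of the 0 h arrays). On the same measure SNAP25, SYT1, HBB and CRX stood at 6.42, 6.33, 5.94 and 5.64. VWF and PECAM1 stood at 5.29 and 5.25, and CD3E and NRL were lower. These values overlap those of the tested pigment epithelium markers, so level alone did not separate the lists. Array quality differed between the groups: for actin, the 5′ control probe set minus the 3′ one (log2) went from -2.06 ± 0.07 to -1.20 ± 0.06 (SD, n = 3, two-sided exact permutation p = 0.1, the smallest that 3 against 3 arrays allow). That of GAPDH went from -0.39 ± 0.05 to -0.13 ± 0.04 (exact permutation p = 0.1). All 24 control probe sets for the poly-A spikes were lower on every 3 h array, by a median of 0.60 on the log2 scale (3 h minus 0 h, -0.60). These shifts accompany every result given here, and their part in the results was not tested.

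Within the pathway, POLB, APTX and NTHL1 were lower at 3 h and PARP1 was higher in some of its probe sets, while most glycosylase probe sets and APEX1 did not pass the test. Of the 23 tested probe sets 9 fell and 3 rose at an adjusted p under 0.05 in limma, and 11 did not pass. Of all 29576 probe sets tested, 25.8% fell and 25.6% rose, against 39.1% and 13.0% of the tested member probe sets. Of the 9 that fell, 6 belong to APTX and so count 1 gene repeatedly. With each gene read as the mean of its tested probe sets, 3 of the 10 members fell and 1 rose. Of all genes in that fit, 29.2% fell and 24.4% rose, so the share of members that fell was close to that of all genes. The groups did not overlap for 13 of the 23 tested member probe sets, or 56.5%, against 60.6% of all probe sets tested. The median difference of the tested member probe sets was -0.10 and that of all tested probe sets was 0.01 (log2, 3 h minus 0 h). The median size of a difference, whatever its sign, was 0.23 among the member probe sets and 0.22 among all.

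**Figure D1:**
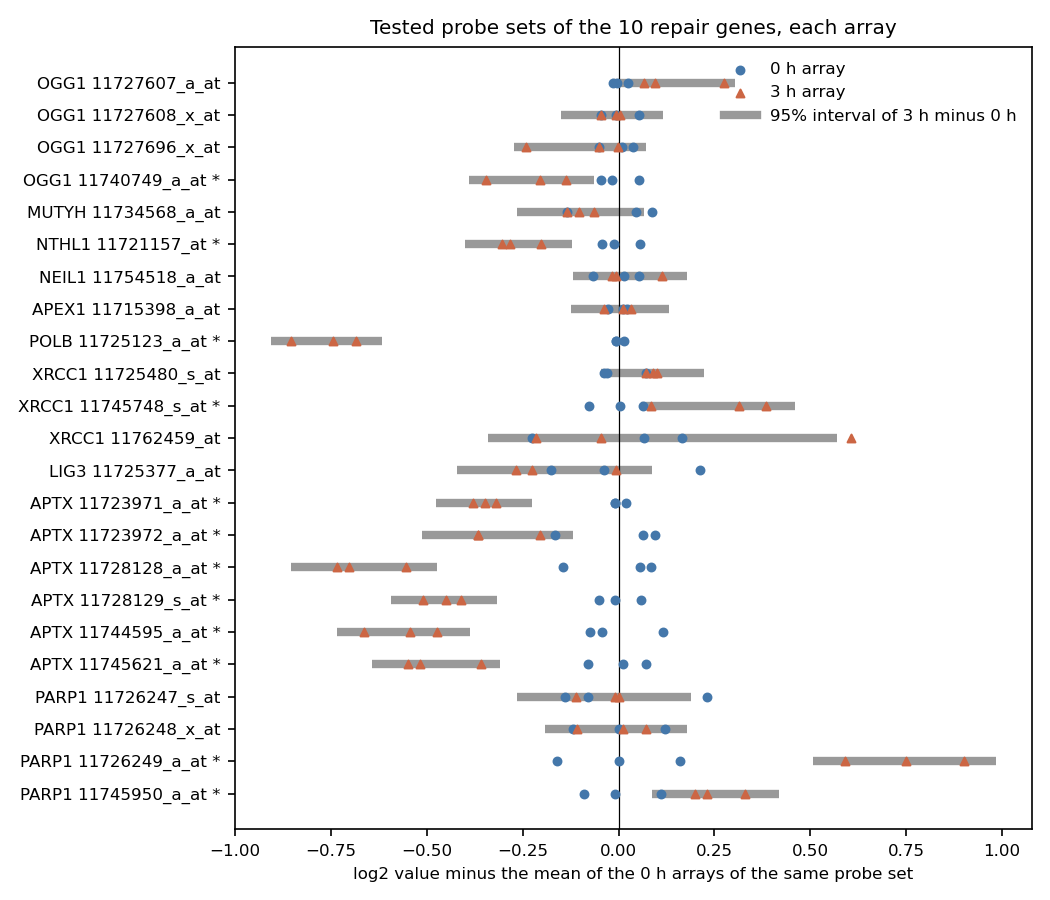
Values of the 23 tested probe sets on each array, as the log2 value minus the mean of the 0 h arrays of the same probe set. Circles are 0 h arrays, triangles 3 h arrays, bars the 95% interval of the difference from limma, and an asterisk marks an adjusted p under 0.05; POLB and the 6 probe sets of APTX lie to the left and PARP1 11726249_a_at lies farthest to the right.

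Some of these genes start close to another gene on the opposite strand, so that 1 stretch of DNA lies upstream of both. The stretches beside NTHL1, APEX1 and APTX are printed as examples of pairs in which the arrays measured both genes. MUTYH and TOE1 were both measured too, and their stretch is not printed. The downstream start of APTX and that of PARP1 are printed as further examples, from genes with probe sets that changed. OGG1 and XRCC1 also had such probe sets, and their starts are not printed. The downstream start of APTX has a neighbour too, LOC124902140, which starts 149 bases away on the opposite strand. LOC124902140 was not among the genes tested, so this pair was not compared. Sequences are from RefSeq, build GRCh38.p14. The set of windows used here covered 9 of the 10 members, all but POLB. Each sequence is written 5′ to 3′ in the direction of the repair gene and ends at the base before its start. Where the neighbour's start lies within 250 bases the sequence begins next to that start, and otherwise it covers 250 bases. Capitals mark matches, on either strand, to any of 6 motifs: the GC box GGGCGG, the pentamer CCAAT bound by nuclear factor Y, the ETS site written as CCGGAAG, the E-box in its form CACGTG, the cyclic AMP response element spelled TGACGTCA and the antioxidant response element core spelled TGACNNNGC.
NTHL1, 150 bases between its start and that of TSC2, chr16:2047835-2047984, minus strand: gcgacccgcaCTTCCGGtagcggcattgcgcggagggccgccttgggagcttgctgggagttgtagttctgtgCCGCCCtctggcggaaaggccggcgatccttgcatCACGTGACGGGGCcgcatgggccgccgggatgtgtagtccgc
APTX, 152 bases between its upstream start and that of DNAJA1, chr9:33025121-33025272, minus strand: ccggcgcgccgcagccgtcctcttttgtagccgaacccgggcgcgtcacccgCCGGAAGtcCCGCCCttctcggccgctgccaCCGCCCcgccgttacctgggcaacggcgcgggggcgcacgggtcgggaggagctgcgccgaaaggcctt
APTX, 148 bases before its downstream start, chr9:33001629-33001776, minus strand: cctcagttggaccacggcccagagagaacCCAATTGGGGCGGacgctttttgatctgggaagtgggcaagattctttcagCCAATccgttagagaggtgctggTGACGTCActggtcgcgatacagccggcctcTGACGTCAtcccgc
APEX1, 250 bases before its start, chr14:20454976-20455225, plus strand: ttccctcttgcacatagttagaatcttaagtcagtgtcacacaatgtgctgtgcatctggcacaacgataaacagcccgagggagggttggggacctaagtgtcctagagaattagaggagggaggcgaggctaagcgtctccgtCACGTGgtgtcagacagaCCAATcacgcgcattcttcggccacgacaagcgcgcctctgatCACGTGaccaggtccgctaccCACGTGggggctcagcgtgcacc
PARP1, 250 bases before its start, chr1:226408094-226408343, minus strand: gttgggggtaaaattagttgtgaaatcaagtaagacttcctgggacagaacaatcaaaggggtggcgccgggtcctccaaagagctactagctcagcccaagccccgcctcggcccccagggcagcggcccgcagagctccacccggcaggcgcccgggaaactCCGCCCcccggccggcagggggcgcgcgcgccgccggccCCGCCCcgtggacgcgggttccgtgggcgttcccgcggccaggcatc

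The cyclic AMP response element occurs 2 times before the downstream start of APTX. It occurs in 1.65% of all 35116 windows of the same 250 bases. The E-box occurs 3 times before APEX1 and 1 time each before LIG3 and NTHL1; before NTHL1 it overlaps the antioxidant element core, and 6.34% of windows hold it. The ETS motif, held by 8.52% of windows, lies between the starts of NTHL1 and TSC2 and between those of APTX and DNAJA1. The antioxidant element core was present before NTHL1 and 1 of the starts of MUTYH among the 9 genes, and in 10.9% of all windows. GC boxes are common: 8 of the 9 genes have 1 before at least 1 start, and 42.6% of windows do. For CCAAT the counts are 6 of the 9 genes and 32.0% of windows, and near the downstream start of APTX 2 of its matches overlap on opposite strands and the nearer overlaps the GC box. A count of genes is not like a share of windows, since the 9 genes have 14 windows and some have several. These matches describe the letters only, and no binding was measured.

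OGG1, the glycosylase that removes oxidised guanine, had 4 probe sets and no shared direction among them. The probe set 11740749_a_at read 6.39, 6.36 and 6.46 on the 0 h arrays and 6.06, 6.27 and 6.20 on the 3 h arrays (log2 values, replicates 1 to 3). All 3 h arrays were below all 0 h arrays, and replicate 1 was the lowest. The difference of -0.23 (SE 0.07, adjusted p = 0.0264 in limma) passed. It no longer passed without replicate 1 at 0 h (-0.23), replicate 3 at 0 h (-0.20) or replicate 1 at 3 h (-0.17). Without the brightness limit (-0.23) it did not pass either. The probe set 11727607_a_at went the other way, from 5.45, 5.48 and 5.44 to 5.73, 5.55 and 5.52, with no overlap between the groups, and its difference of 0.14 did not pass (adjusted p = 0.121, 95% interval -0.02 to 0.30). The remaining probe sets, 11727608_x_at and 11727696_x_at, stood at -0.02 and -0.10 (adjusted p = 0.812 and 0.295) and their groups overlapped. Averaged over its 4 probe sets OGG1 differed by -0.05 (95% interval -0.16 to 0.06, adjusted p = 0.398).

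MUTYH removes adenine that was paired with oxidised guanine, the next step when OGG1 has not acted. Its single probe set read 6.35, 6.39 and 6.17 at 0 h and 6.17, 6.24 and 6.20 at 3 h. The groups overlapped through replicate 3 at 0 h, and the difference of -0.10 did not pass (95% interval -0.26 to 0.07, adjusted p = 0.281). NEIL1, which takes oxidised pyrimidines and ring-opened purines, read 5.22, 5.10 and 5.18 and then 5.16, 5.15 and 5.28. Its difference was 0.03 (95% interval -0.12 to 0.18, adjusted p = 0.730) and turned to -0.01 under quantile normalization or with each array centred on its median.

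NTHL1, a glycosylase for oxidised pyrimidines, was the only glycosylase gene among the members whose call passed under each left-out array. Its probe set 11721157_at read 7.39, 7.36 and 7.46 at 0 h and 7.20, 7.10 and 7.12 at 3 h. All 3 h arrays lay below all 0 h arrays. NTHL1 fell by 0.26 (3 h minus 0 h, -0.26, SE 0.06, 1.20-fold lower, adjusted p = 0.00739), and by 0.23 to 0.29 with single arrays left out (-0.29 to -0.23). The other probe set of NTHL1, 11761575_at, was under the limit, between 3.80 and 4.22 on the 6 arrays, and was not tested. With it included, the mean of both probe sets differed by -0.09 and did not pass (adjusted p = 0.277).

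APEX1, the endonuclease that cuts the backbone where a base is missing, stayed within a narrow range. It read 10.51, 10.55 and 10.56 at 0 h and 10.55, 10.57 and 10.50 at 3 h. The groups overlapped, and the difference of 0.00 had a 95% interval of -0.12 to 0.13 (adjusted p = 0.969). With each array centred on its median it stood at -0.03.

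POLB, the polymerase that fills the gap and trims the sugar left at its edge, showed the largest difference of the 23 tested probe sets. It read 8.30, 8.32 and 8.30 at 0 h and 7.62, 7.56 and 7.45 at 3 h. The 0 h arrays were almost equal, and every 3 h array was well below them. The fall was 1.70-fold (log2 -0.76, SE 0.06, adjusted p = 6.78e-05 in limma), and -0.80 to -0.72 with single arrays left out. It rests on 1 probe set, designed on a RefSeq transcript.

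XRCC1 is the scaffold that holds POLB, LIG3 and APTX at a break. Its 3 probe sets all stood above 0, and 1 of them passed. The probe set 11745748_s_at read 4.90, 5.04 and 4.98 at 0 h and 5.06, 5.36 and 5.29 at 3 h, so the lowest 3 h array lay just above the highest 0 h array. Its difference was 0.26 (SE 0.09, adjusted p = 0.0365). The call did not pass under quantile normalization (0.22) or median centring (0.22), or on leaving out any 0 h array (0.22, 0.29 and 0.26 for replicates 1 to 3) or replicate 2 (0.20) or 3 (0.23) of the 3 h arrays. Nor did it pass without the brightness limit or with trend and robust variance moderation (0.26 in both). The probe set 11725480_s_at differed by 0.09 and 11762459_at by 0.11, and neither passed (adjusted p = 0.241 and 0.652). For 11762459_at the 3 h arrays spread from 6.14 to 6.96, and without replicate 1 at 3 h its difference turned to -0.13. Averaged over the 3 probe sets XRCC1 differed by 0.15 (adjusted p = 0.0619).

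LIG3, which seals the last nick in nucleus and mitochondria, was dim on this array. Of its 8 probe sets 7 were under the limit, with means between 2.01 and 4.52 over the 6 arrays. The tested one, 11725377_a_at, read 5.79, 5.40 and 5.54 at 0 h and 5.57, 5.31 and 5.35 at 3 h. The groups overlapped, and the difference of -0.17 did not pass (95% interval -0.42 to 0.09, adjusted p = 0.238). The differences of the 7 dim probe sets ran from -0.19 to 0.31. The mean over all 8 stood at 0.05, so the sign for this gene depended on which probe sets were read.

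APTX, or aprataxin, removes the AMP that a failed ligation leaves on a 5′ end. All 6 of its probe sets fell. The brightest, 11728129_s_at, read 8.42, 8.49 and 8.38 at 0 h and 7.92, 7.98 and 8.02 at 3 h. The probe set with the largest difference, 11728128_a_at, read 6.88, 7.11 and 7.08 and then 6.29, 6.32 and 6.47. In both, all 3 h arrays lay below all 0 h arrays, as they did in the other 4. The difference was -0.45 (SE 0.06, adjusted p = 0.000524) for the first and -0.66 (SE 0.08, adjusted p = 0.000391) for the second. Those of 11744595_a_at, 11745621_a_at and 11723971_a_at were -0.56, -0.48 and -0.35. The smallest, -0.32 for 11723972_a_at (adjusted p = 0.0148), no longer passed without replicate 2 or 3 at 0 h (-0.27, -0.28). Averaged over the 6 probe sets APTX was 1.39-fold lower (log2 -0.47, SE 0.05, adjusted p = 0.000174). The platform annotation gives 5 different design sequences for the 6, of which 2 probe sets share 1, so they are partly separate readings of the same transcripts on the same arrays and not replicates.

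PARP1, the sensor that binds breaks and builds poly(ADP-ribose), had probe sets that differed among themselves. The probe set 11726249_a_at read 6.21, 6.37 and 6.05 at 0 h and 6.80, 6.96 and 7.11 at 3 h. Every 3 h array exceeded every 0 h array, and PARP1 rose 1.68-fold in this reading (log2 0.75, SE 0.10, adjusted p = 0.000639). The probe set 11745950_a_at read 7.34, 7.22 and 7.14 and then 7.56, 7.43 and 7.46, again without overlap. It rose by 0.25 (SE 0.07, adjusted p = 0.0190), and did not pass on leaving out replicate 2 (0.25) or 3 (0.21) of the 0 h arrays or replicate 1 of the 3 h arrays (0.21). The probe sets 11726247_s_at and 11726248_x_at read 5.90, 5.84 and 6.21 then 5.97, 5.98 and 5.87, and 6.78, 6.90 and 7.02 then 6.91, 6.97 and 6.79. Their groups overlapped, at differences of -0.04 (95% interval -0.26 to 0.19) and -0.01 (95% interval -0.19 to 0.18, adjusted p = 0.771 and 0.945). These latter probe sets share a RefSeq transcript as design sequence, 11745950_a_at was designed on a GenBank cDNA and 11726249_a_at on an expressed sequence tag. The endings _s_at and _x_at of 11726247_s_at and 11726248_x_at mark probe sets as shared or cross-hybridizing. The same holds for the probe sets of OGG1, XRCC1 and APTX with these endings. Averaged over the 4 probe sets PARP1 differed by 0.24 (SE 0.05, adjusted p = 0.00283).

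**Figure D2:**
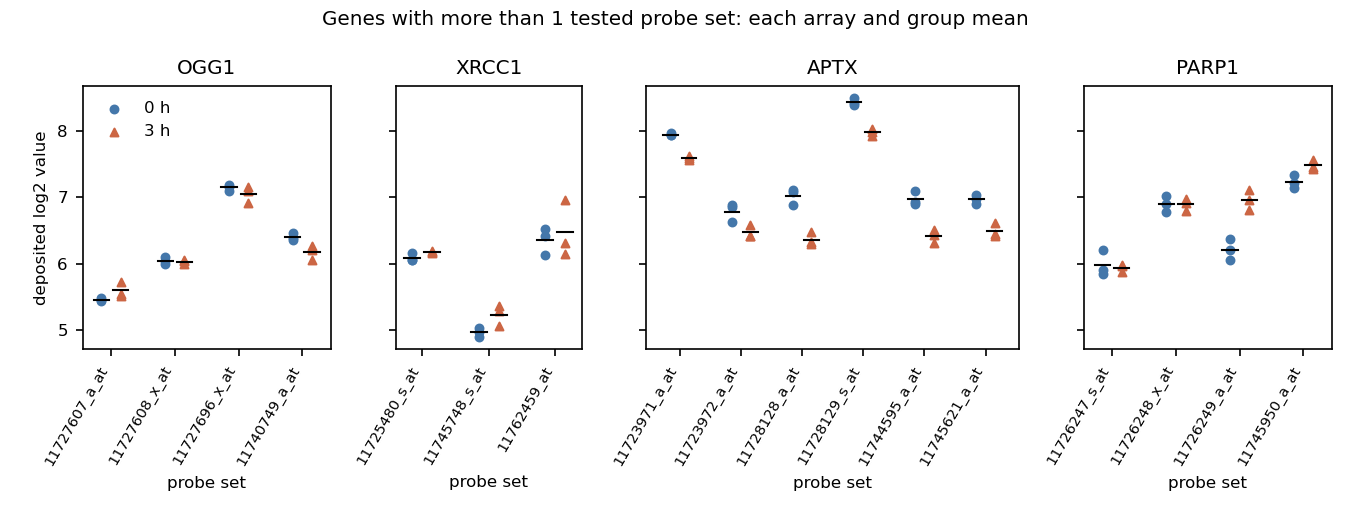
Deposited log2 values of OGG1, XRCC1, APTX and PARP1, the 4 genes with more than 1 tested probe set, with each array as a point (circles 0 h, triangles 3 h) and the group mean as a line. The 6 probe sets of APTX all step down, whereas those of PARP1 range from no visible step to 0.75 upward; heights are not comparable between probe sets.

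Whether probe sets of 1 gene differed from each other was tested on the difference, within each array, between a probe set and the mean of the gene's other tested probe sets. Across all 22134 probe sets of genes with several, 32.2% passed at an adjusted p under 0.05 in limma. Among the 17 probe sets of OGG1, XRCC1, APTX and PARP1, 5 passed. PARP1 11726249_a_at stood 0.68 above the other probe sets of its gene (SE 0.14, adjusted p = 0.0111), and passed under each left-out array (0.56 to 0.78). PARP1 11726247_s_at and 11726248_x_at stood below theirs (-0.37 and -0.33, adjusted p = 0.0481 and 0.0265). The mean they were compared with includes 11726249_a_at, so the passes of PARP1 are not separate results. Between 0 h and 3 h these probe sets differed by -0.04 and -0.01. OGG1 11740749_a_at stood at -0.24 (adjusted p = 0.0429) and APTX 11728128_a_at at -0.23 (adjusted p = 0.0466) against their own. The call of OGG1 ended on leaving out any array but replicate 2 at 3 h (-0.27 to -0.18 over the 6), that of APTX on leaving out any but replicate 3 at 3 h (-0.29 to -0.20) and that of PARP1 11726247_s_at on leaving out any but replicate 2 at 0 h (-0.46 to -0.23). That of PARP1 11726248_x_at ended on leaving out replicate 2 (-0.33) or 3 (-0.26) of the 0 h arrays or replicate 3 of the 3 h arrays (-0.27). The count of 5 was 1 with the replicate number as a block.

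The neighbours on the opposite strand did not all go the way of the repair gene. TSC2, which encodes tuberin, a brake on mTORC1, starts 151 bases from NTHL1. Its tested probe set read 5.95, 5.92 and 6.01 at 0 h and 6.49, 6.71 and 6.71 at 3 h, every 3 h array above every 0 h array. TSC2 rose by 0.68 (SE 0.07, adjusted p = 0.000119 in the limma fit per gene) while NTHL1 fell. The within-array difference between NTHL1 and TSC2 changed by -0.94 (exact permutation p = 0.1, the smallest possible). The other probe set of TSC2 was under the limit.

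DNAJA1, a co-chaperone of HSP70, starts 153 bases from the upstream start of APTX, and fell with it. Averaged over its 5 probe sets, DNAJA1 read 10.87, 10.84 and 10.93 and then 10.59, 10.61 and 10.63. All 3 h arrays were the lower ones, at -0.27 (SE 0.05, adjusted p = 0.00181), and 3 of its 5 probe sets fell by themselves. OSGEP, which encodes an enzyme of transfer RNA modification, starts 414 bases from APEX1. It read 8.03, 7.93 and 7.95 and then 7.78, 7.75 and 7.76, and fell by 0.21 (-0.21, SE 0.05, adjusted p = 0.00798) where APEX1 stood at 0.00. TOE1, an RNA deadenylase whose start is 50 bases from 1 start of MUTYH, differed by 0.11 (adjusted p = 0.113), or -0.04 in its brightest probe set. Its 4 probe sets ranged from -0.08 to 0.54, and 1 of them rose. Of 676 pairs of tested genes with such starts within 1000 bases, 28.8% had both genes called in the same direction and 9.32% in opposite directions. These pairs were looked up after the values of the repair genes were seen.

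**Figure D3:**
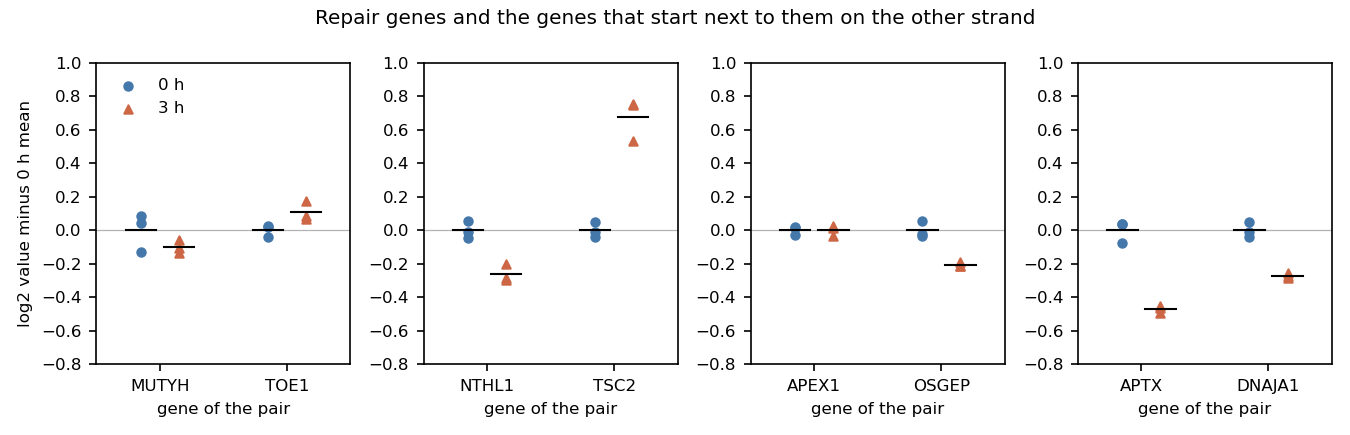
Log2 values minus the 0 h mean of the same gene for MUTYH, NTHL1, APEX1 and APTX and for the gene that starts beside each on the opposite strand, averaged over tested probe sets. Circles are 0 h arrays, triangles 3 h arrays and lines group means; NTHL1 lies below 0 and TSC2 above it at 3 h, while APTX and DNAJA1 both lie below.

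Other genes of the pathway were read as the mean of their tested probe sets. Of all 12221 genes in that fit 29.2% fell and 24.4% rose at an adjusted p under 0.05 in limma. Over 5 lists of pathway genes, 48 of 52 genes were tested; 21 fell, 6 rose and 21 did not pass, which is 43.8% lower and 12.5% higher. The median difference was -0.12, against -0.01 for all genes. In the same fit 3 of the 10 repair genes fell and 1 rose. MACROD2 was under the limit, and the other genes not tested are not analysed here.

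The other DNA glycosylases were split, with 3 of 7 lower, 2 higher and 2 not passing (median -0.19). SMUG1 and MBD4, which remove uracil and mispaired thymine, fell (-0.38 and -0.33), and MPG, which removes alkylated bases, fell by 0.30 (-0.30). NEIL2 rose by 0.27, but did not pass on leaving out replicate 1 (0.21) or 2 (0.26) of the 0 h arrays or replicate 2 of the 3 h arrays (0.24), or in its brightest probe set (0.11). With the limit at the 60th percentile NEIL2 stood at 0.11 and did not pass. UNG, the main uracil glycosylase, was named with its value known. It rose by 0.18, and did not pass with arrays centred on their medians (0.14), with the replicate number as a block (0.18), in its brightest probe set (0.08), or on leaving out replicate 2 (0.17) or 3 (0.15) of the 0 h arrays or replicate 2 of the 3 h arrays (0.13). The call of UNG also ended without the brightness limit (0.18).

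Genes of end processing, gap filling and ligation gave 3 lower, 3 higher and 8 not passing among 14 tested (median -0.06). TDP2, which frees 5′ ends from trapped topoisomerase, fell by 0.52 (-0.52, SE 0.05, adjusted p = 0.000125). FEN1, the flap endonuclease of the long repair patch, and APEX2, a relative of APEX1, rose by 0.30 and 0.29, with APEX2 at 0.17 and not passing in its brightest probe set. HMGB1, an abundant chromatin protein, fell by 0.29 (-0.29), or -0.15 and not passing without probe sets marked as shared or cross-hybridizing. LIG1, the ligase of the long patch, and PCNA, its sliding clamp, both named after their values were seen, stood at 0.04 and -0.04 (adjusted p = 0.570 and 0.561).

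Among the 8 tested writers, readers and erasers of ADP-ribose, 4 fell, 0 rose in limma and 4 did not pass (median -0.14). OARD1, which removes the last ADP-ribose from proteins, fell by 0.42 (-0.42) and PARG, which degrades the chains that PARP1 builds, fell by 0.37 (-0.37, adjusted p = 0.000421). PARP2, the closest relative of PARP1, fell by 0.23 (-0.23). HPF1, the cofactor that directs PARP1 to serines, fell by 0.25 (-0.25) and did not pass on leaving out replicate 1 or 2 of the 0 h arrays (both -0.22) or replicate 1 of the 3 h arrays (-0.18). ADPRS, the eraser of serine ADP-ribose, named after its value was seen, stood at 0.18 (adjusted p = 0.0530), and its unadjusted p was 0.0287.

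Nucleotide pool cleaning and direct reversal had 6 lower, 0 higher and 4 not passing of 10 tested (median -0.24), and the differences ran from -0.44 to -0.01. All 10 lay below 0, as did 51.1% of all genes, but by the brightest probe set 3 of the 10 (ALKBH1, ALKBH2 and ITPA) lay above 0. ALKBH1, a demethylase counted among the 6, differed by -0.19 (adjusted p = 0.0215). Its call ended in its brightest probe set (0.04) and on leaving out replicate 1 (-0.19) or 2 (-0.16) of the 0 h arrays or replicate 3 of the 3 h arrays (-0.15). ALKBH3 and MGMT, which reverse alkylation on DNA, fell by 0.44 and 0.31 (-0.44 and -0.31). NUDT5, a hydrolase of ADP-ribose, fell by 0.28 (-0.28) and DUT, which clears dUTP, by 0.32 (-0.32), or -0.06 and not passing in its brightest probe set. NUDT1, or MTH1, which clears oxidised guanine nucleotides before they reach DNA, fell by 0.32 (-0.32, adjusted p = 0.00427) and was named after its value was seen.

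For mitochondrial DNA synthesis and repair, 5 of 9 genes fell and 1 rose, with 3 not passing (median -0.20). DNA2, a nuclease and helicase of long-patch repair, fell by 0.62 (-0.62) to a 3 h mean of 4.75, close to the limit. PRIMPOL, which restarts stalled synthesis, fell by 0.57 (-0.57), and POLG2, the accessory subunit of the mitochondrial polymerase, by 0.45 (-0.45). MGME1, counted among the 5 and named after its value was seen, stood at -0.22. Its call ended on leaving out replicate 2 of the 0 h arrays (-0.17) or replicate 1 (-0.17) or 2 (-0.21) of the 3 h arrays. TWNK, the mitochondrial helicase, rose by 0.31 (adjusted p = 0.00218). POLG, the catalytic subunit, named after its value was seen, stood at 0.09 (adjusted p = 0.344).

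**Figure D4:**
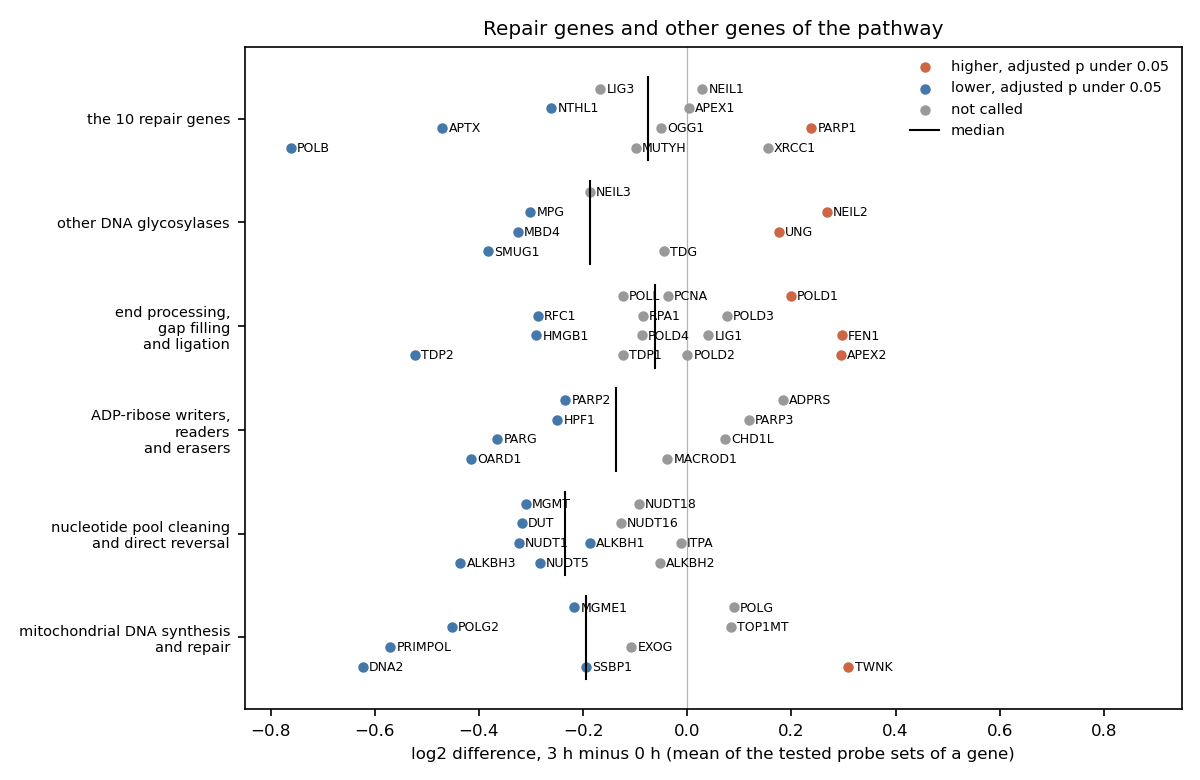
Log2 difference between 3 h and 0 h for the 10 repair genes and 5 lists of other pathway genes, 1 point per gene (mean of its tested probe sets), with a line at each list's median. Orange and blue points are higher and lower at an adjusted p under 0.05; the 10 genes of nucleotide pool cleaning and direct reversal all lie below 0 on this mean (3 lie above 0 by their brightest probe set), and POLB lies farthest to the left.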

How the data were processed

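The authors deposited 1 table of log2 values for 49372 probe sets on 6 Affymetrix arrays. The log2 scale was read from the values (array medians 5.30 to 5.34), and MAS5 and RMA are named, per the submitters' processing notes, with no role; any other step is not given in the sources used here. Such normalization hides changes in total RNA. Groups came from sample titles. The platform annotation gave 44988 probe sets 1 symbol each. All 29576 non-control probe sets at or above the 40th percentile were fitted together with limma 3.58.1 (lmFit, eBayes; R 4.3.3), and p-values were adjusted by Benjamini-Hochberg and called under 0.05. Further limma fits used the mean of a gene's tested probe sets (12221 genes) and the within-array difference from the gene's other probe sets. "Rose" and "fell" are used of calls only. Figures used matplotlib 3.10.9.

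The members and lists were chosen with earlier results of these data known. Genes named are all members and, of each list, the 4 genes with the smallest p; others are marked. Alternatives covered quantile normalization, median centring, the floor, variance moderation, array weights, the replicate block, thresholds, the reading per gene and each array left out. The number of arrays limits precision; the median SD of a probe set was 0.07 at 0 h and 0.09 at 3 h.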

Additional observations from a re-analysis of the deposited data

How the results depend on the processing

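POLB, NTHL1 11721157_at, PARP1 11726249_a_at and 5 of the 6 probe sets of APTX kept their calls under each scaling, floor, variance, weighting, block and left-out array run. Over all single results, 1190 combinations with an alternative gave 1059 with the same direction and side, 98 that no longer passed, 0 that newly passed and 33 that changed sign. Other pathway genes were followed singly only if called in the main fit, so new calls among the rest could not enter the 0. By count, pathway genes called lower went from 21 to 23 with median centring, and those called higher from 6 to 7 with array weights.

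Member probe sets called higher numbered 3, with 1 to 2 when arrays were left out and 1 at a threshold of 0.01; those called lower numbered 9, with 7 to 9. With the replicate block these counts were 3 and 9. Replicate numbers showed no sign of pairing. Deviations of same-numbered arrays from their group mean correlated at -0.01, -0.04 and -0.19, and 0 of 6 arrays correlated best with their own number. With 3 arrays in a group, deviations from the group mean constrain each other, so these values cannot decide whether the arrays were paired. Probe sets that differed from the others of their gene numbered 5 among members, but 1 without a filter, 3 with trend and robust moderation, 3 with array weights, 1 with the replicate block, 0 at 0.01 and 1 to 3 with arrays left out; over all probe sets they numbered 7132, then 2922 at 0.01 and 4378 to 6353. Dropping probe sets marked _s or _x, so testing fewer, left 4927 that rose and 4667 that fell, against 7569 and 7624. Other pathway genes called higher numbered 6, then 3 at 0.01, 3 by the brightest probe set and 3 to 7 with arrays left out.

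Of the results that changed sign, ALKBH1 had been called lower (-0.187). NEIL1 turned to -0.013 (quantile) and -0.0082 (median centring), APEX1 to -0.034 (median centring), PARP1 11726248_x_at to 0.036 (array weights), LIG3 to 0.046 (all its probe sets, or no filter), ALKBH1 to 0.039 (60th percentile floor, or brightest probe set) and TOE1 to -0.042 (brightest). Against the other probe sets of their gene, at the 60th percentile OGG1 11727696_x_at turned to 0.023, XRCC1 11762459_at to 0.027 and PARP1 11745950_a_at to -0.117, the latter to -0.037 with array weights. With single arrays left out, differences ran from -0.043 to 0.0083 (OGG1 11727608_x_at), -0.012 to 0.056 (NEIL1), -0.012 to 0.021 (APEX1), -0.129 to 0.278 (XRCC1 11762459_at), -0.109 to 0.076 (PARP1 11726247_s_at) and -0.067 to 0.053 (PARP1 11726248_x_at). Against the gene's other probe sets they ran from -0.105 to 0.012 (OGG1 11727696_x_at), -0.353 to 0.137 (XRCC1 11762459_at), -0.033 to 0.057 (APTX 11728129_s_at), -0.089 to 0.043 (APTX 11745621_a_at) and -0.059 to 0.105 (PARP1 11745950_a_at). The causes were not tested.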
